A study of Mus musculus with 8 samples.

Results

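Midkine (Mdk) and pleiotrophin (Ptn), with 4 genes whose proteins act as their receptors (Ptprz1, Alk, Lrp1 and Ncl), were followed in notochord-derived cells (NDCs) of the mouse. These 6 genes were picked by name, with earlier results from these samples known, out of 43346 gene identifiers counted. The 8 samples were 4 litters at embryonic day 12.5 (E12.5) and 4 litters at postnatal day 0 (P0), the start and the end of the change from notochord to nucleus pulposus (NP), and each sample pooled the embryos or pups of 1 litter. All animals carried Shh-cre;ROSA:YFP, a reporter in which cre driven from the Shh locus leaves YFP on in cells that express Shh and in their descendants. E12.5 notochords (litters NDP10.2, NPD3, NPD4 and NPD9.2) were dissected whole and put straight into TRIzol, whereas NP cells at P0 (NPD26, NPD27, NPD28 and NPD30) were shaken loose from bisected discs and sorted for YFP, so that stage and way of isolation cannot be told apart. The question put to these genes was how the mRNA abundance of the ligands and of their receptors differed between the stages.

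Midkine and pleiotrophin are small, basic, secreted growth factors that bind heparin and together make up a family of their own. They are held in the matrix and at the cell surface by heparan sulfate and chondroitin sulfate chains, and both are known from the growing nervous system and from immature cartilage. Ptprz1 is a receptor tyrosine phosphatase that itself carries chondroitin sulfate. Pleiotrophin clusters it and lowers its phosphatase activity, which leaves its substrates more phosphorylated. Alk is a receptor tyrosine kinase, Lrp1 a large endocytic receptor that takes up midkine, and Ncl (nucleolin) a nucleolar protein of ribosome making that is also found at the cell surface, where it binds both ligands.

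A stretch of each ligand's coding sequence is shown, because the comparison rests on telling these related mRNAs apart. Mdk lies at chr2:91929805-91932297 on the minus strand and Ptn at chr6:36714929-36810220 on the minus strand (GRCm38, Gencode M21), and both are protein-coding genes. Without the stop codon their coding sequences have 420 and 504 bases. Of the windows of 90 coding bases that lay within 1 exon of each gene and were aligned without a gap, the pair shown, from exon 4 of each, matched at the most positions. Capitals mark the 54 of 90 positions (60%) at which both genes have the same base. Over the whole coding sequences, aligned with gaps allowed, 281 of 413 aligned bases (68%) were the same. The window shown is thus less alike than the aligned sequences as a whole. The Mdk stretch lies at chr2:91930885-91930974 and the Ptn stretch at chr6:36741345-36741434, each printed on the coding strand, 5′ to 3′.
Mdk: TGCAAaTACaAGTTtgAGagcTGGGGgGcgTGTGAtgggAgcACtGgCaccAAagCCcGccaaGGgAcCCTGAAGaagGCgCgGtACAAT
Ptn: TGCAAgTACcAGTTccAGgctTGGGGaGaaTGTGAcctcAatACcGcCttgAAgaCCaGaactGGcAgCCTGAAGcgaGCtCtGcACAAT
Differences fell throughout the stretch, and the longest run of bases that the transcripts of Mdk and Ptn had in common was 15. A pseudogene of midkine, Mdk-ps1, shared a run of 51 bases with Mdk and had between 1 and 6 counts per litter, against 77 or more for Mdk.

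Reads counted on genes numbered 4442775 to 7180221 in the E12.5 litters and 6371842 to 8904050 in the P0 litters. In NDP10.2 and NPD9.2 a smaller share of reads fell on genes (22.6% and 24.6%, against 30.9% to 34.8% in the other litters). T, the defining transcription factor of the notochord, stood at 242 to 2323 CPM (counts per 1000000 counted reads) in all 8 litters. Noto had at most 3 counts in any litter, and Foxa2 stood at 1.59 to 17.2 CPM. Of 8 notochord markers, 7 were tested. At an adjusted p under 0.05, 1 was higher at P0 (Krt19) and 2 were lower (Shh and Foxa1). Foxa1 stood at 70.0 to 239 CPM at E12.5 and at 18.6 to 52.3 CPM at P0. Shh stood at 420.3 to 1348 CPM at E12.5 and at 0.157 to 11.8 CPM at P0. Levels are given below as CPM on library sizes scaled by TMM, edgeR's correction for composition, and comparisons between genes as CPM per kilobase of exon (RPKM). In bulk samples, fewer cells that express a gene and less of its mRNA per cell cannot be told apart.

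Mdk mRNA was abundant at E12.5 and low at P0, and Ptn mRNA differed in the opposite direction by a smaller amount. Mdk stood at 530.3, 342, 366 and 586 CPM in the E12.5 litters NDP10.2, NPD3, NPD4 and NPD9.2. The values at P0 were 12.1 in NPD26, 23.6 in NPD27, 9.42 in NPD28 and 13.2 CPM in NPD30. Every P0 litter lay far below every E12.5 litter, and the lowest E12.5 value was in NPD3 and the highest P0 value in NPD27. The mean went from 456 ± 120.5 CPM to 14.6 ± 6.24 CPM (SD, n = 4 litters each), a log2 fold change of -4.97 (SE 0.38, 95% interval -5.79 to -4.14), or 31.3-fold lower mRNA abundance at P0. Since the 6 genes were picked with this contrast known, their own differences are given as descriptions, and nothing is read from whether they passed a threshold. Of the 15467 genes tested, 66 had a more negative fold change than Mdk. Placed among 15378 genes by level per kilobase, Mdk stood at the 99.6th percentile at E12.5 and at the 73.9th at P0, and so it was still detected in every P0 litter, with 77 to 164 counts.

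Ptn stood at 88.5, 101.3, 158 and 173 CPM in NDP10.2, NPD3, NPD4 and NPD9.2. In NPD26, NPD27, NPD28 and NPD30 it stood at 263, 162, 289 and 534 CPM. The stages overlapped, since the P0 litter NPD27 fell just below the E12.5 litter NPD9.2, and NPD30 lay well above the other P0 litters. The mean went from 130.2 ± 41.6 CPM to 312 ± 158 CPM (SD, n = 4 each), a log2 fold change of 1.26 (SE 0.37, 95% interval 0.44 to 2.08), or 2.39-fold higher mRNA abundance at P0. This size was common in the comparison, with 4154 genes (26.9%) showing a larger fold change in either direction. With NDP10.2, NPD3 or NPD30 left out the log2 fold change was 1.08, 1.12 and 0.83.

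**Figure D1:**
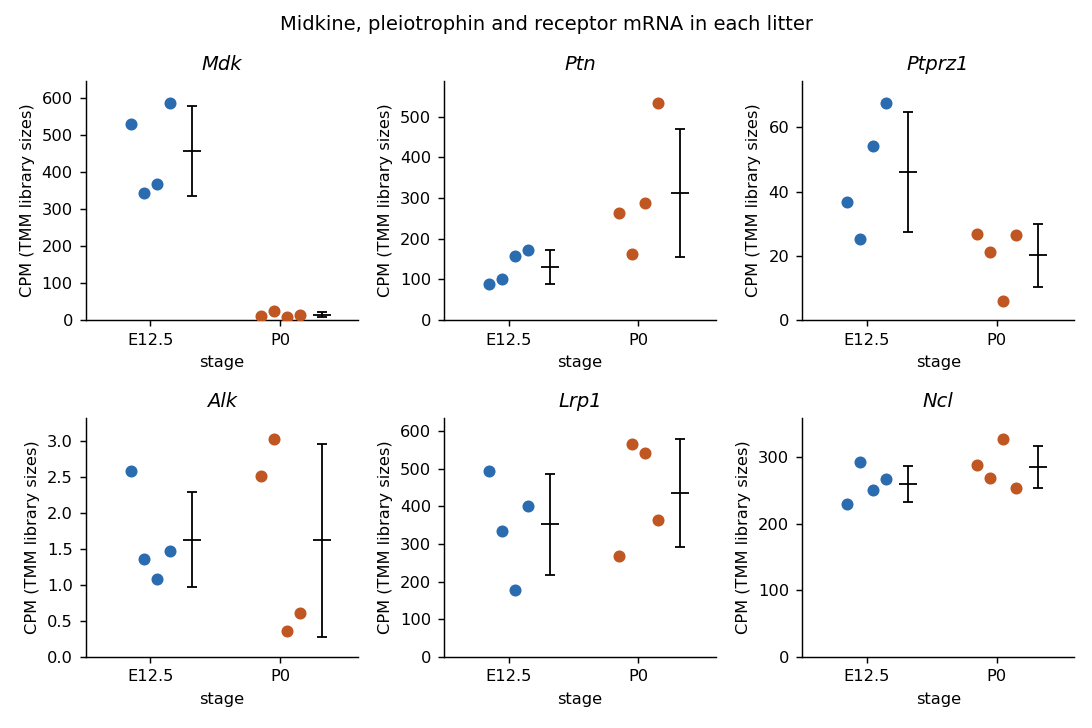
mRNA abundance of the ligands and receptors in CPM on TMM library sizes (vertical axes, each starting at 0) by stage; points are litters (n = 4 per stage), and the bars beside them give the mean ± SD. Mdk has the only panel in which the P0 litters (9.42 to 23.6 CPM) all lie apart from the E12.5 litters (342 to 586 CPM).

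Relative to each other, the ligands changed places. Per kilobase of exon, Mdk exceeded Ptn 15.5, 8.76, 6.00 and 8.80 times in the E12.5 litters NDP10.2, NPD3, NPD4 and NPD9.2. At P0 it was Ptn that exceeded Mdk, by 8.38, 2.64, 11.8 and 15.6 times in NPD26, NPD27, NPD28 and NPD30. No litter of either stage went against this order. These ratios were taken within each library, so that library size and its scaling cancel out of them, but they depend on the gene lengths used. Dividing by the length of 1 principal transcript in place of all exons (1054 bases for Mdk and 1614 for Ptn, in place of 1324 and 3433) gave Mdk an excess of 3.54 to 9.18 times at E12.5 and Ptn an excess of 4.48 to 26.4 times at P0, with the same order in every litter. As a share of both ligand mRNAs per kilobase, Mdk made up 89.8 ± 3.36% at E12.5 and 13.0 ± 9.83% at P0 (SD, n = 4 each), with NPD27 the highest P0 litter at 27.4%. With the transcript lengths these shares were 84.0 ± 4.98% and 8.31 ± 6.74%.

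**Figure D2:**
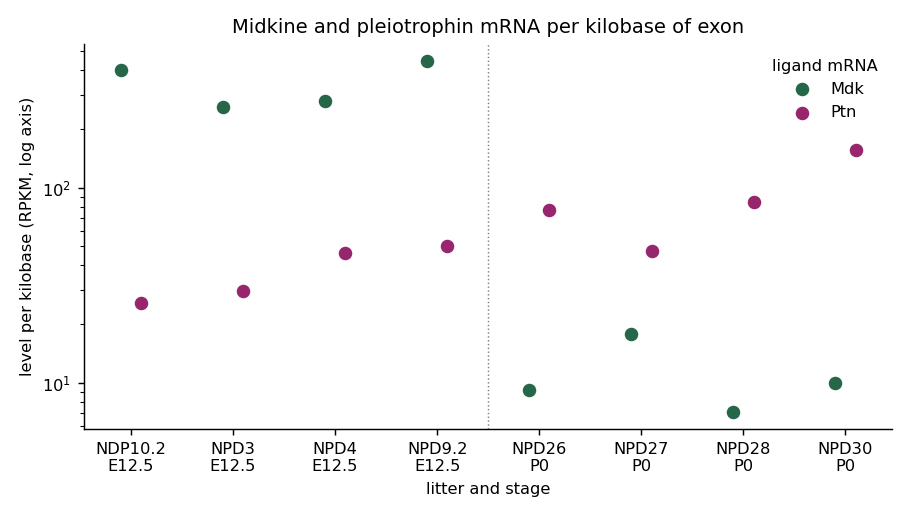
Mdk and Ptn mRNA per kilobase of exon (RPKM, log axis) in each litter, with E12.5 litters left of the dotted line and P0 litters right of it; each point is 1 gene in 1 litter. Mdk lies above Ptn in the 4 E12.5 litters and below it in the 4 P0 litters, with the narrowest gap at P0 in NPD27, where Ptn exceeds Mdk 2.64 times.

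Markers of other cell types were compared between the same litters, counted as higher or lower at an adjusted p under 0.05. Of all genes tested, 16.0% were higher at P0 and 12.0% lower, and the counts below are descriptions beside those shares. All 7 sclerotome markers, which mark the mesenchyme around the notochord, were lower at P0, with a summed level of 134 to 205 CPM at E12.5 and 6.24 to 21.5 CPM at P0, where Nkx3-2 and Uncx were at 0 in some litter. Of 6 markers of Schwann cells and neural crest, 4 were lower at P0 (summed level 434 to 919 CPM at E12.5 and 264 to 792 CPM at P0, none at 0). Of 5 erythroid genes, 4 were lower, with a summed level of 9076 to 41697 CPM at E12.5 and 155 to 487 CPM at P0, none at 0. Leukocyte markers were higher at P0 for 8 of 8 genes (55.6 to 167 CPM at E12.5, where Cd52 was at 0 in some litter, and 469 to 5317 CPM at P0), and so were 5 of 6 osteoblast markers (239 to 1275 CPM and 3146 to 12107 CPM), of which Ibsp, Bglap and Dmp1 were at 0 in some E12.5 litter. Bglap, the other osteoblast marker, did not pass the filter on low counts and was not tested. Most of the osteoblast sum was Col1a1, at 235 to 1272 CPM at E12.5 and 2845 to 11487 CPM at P0. Of 8 neural markers 2 were lower at P0, Sox2 (7.81 to 27.0 CPM at E12.5 and 0.235 to 5.50 CPM at P0) and Nes (67.5 to 161 CPM and 2.00 to 11.8 CPM), and Nkx2-2 and Olig2 were at 0 in some litter. Pax6, Tubb3, Elavl3 and Stmn2 did not pass the test (log2 fold changes of -0.17, -0.34, -0.83 and 0.84). In NDP10.2, NPD3 and NPD9.2, Stmn2 stood at 28.5 to 34.7 CPM and Tubb3 at 23.2 to 43.5 CPM, below every P0 litter. At P0 they stood at 185 to 536 and 80.2 to 189 CPM, and in NPD4 at 689 and 576 CPM. The neural sum was 157 to 1652 CPM at E12.5 and 302 to 827 CPM at P0, and NPD4 held the highest value, at 1652 CPM against 157 to 296 CPM in the other E12.5 litters. NPD4 was also the highest E12.5 litter for the neural adhesion genes Nrcam, Cntn1 and Ncam1 among the partners of Ptprz1, at 39.4, 60.7 and 485 CPM. Without NPD4 the log2 fold change was -5.06 for Mdk, 1.36 for Ptn and -1.11 for Ptprz1. Of 6 chondrocyte markers 2 were higher and 1 lower at P0 (1899 to 7416 CPM and 1630.0 to 7484 CPM), and of 5 endothelial markers 1 was lower (69.1 to 141 CPM and 22.3 to 107 CPM), none at 0. Among the P0 litters NPD30 had the highest Ptn together with the lowest leukocyte sum (469 CPM, against 4498 to 5317 CPM in the others), the highest osteoblast sum (mostly Col1a1), and the highest summed level of 8 notochord markers (4082 CPM, against 1014 to 2221 CPM). Of the osteoblast markers, Dmp1, Alpl and Bglap were not highest in NPD30. The part of any of these cells in the Mdk and Ptn values was not tested.

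Of the receptors, Ptprz1 had the largest fold change between the stages and Ncl the smallest spread over litters. Ptprz1 lies at chr6:22875502-23052916 on the plus strand. It stood at 36.8, 25.4, 54.2 and 67.6 CPM in NDP10.2, NPD3, NPD4 and NPD9.2, and at 26.9, 21.1, 6.00 and 26.5 CPM in NPD26, NPD27, NPD28 and NPD30. The E12.5 litter NPD3 fell below the P0 litters NPD26 and NPD30, and NPD28 was far below the rest. The log2 fold change was -1.20 (SE 0.46, 95% interval -2.20 to -0.19), from 46.0 ± 18.7 CPM to 20.1 ± 9.78 CPM (SD, n = 4 each). The neural crest and Schwann cell factor Sox10 was at 122, 88.4, 162 and 190.1 CPM in the E12.5 litters and at 13.1, 19.2, 1.77 and 11.2 CPM in the P0 litters, in the same litter order, and was thus lowest in NPD28 as well. Over the whole list of 6 Schwann and neural crest markers, the summed level was also lowest in NPD28, at 264 CPM. The part of such cells in the Ptprz1 value was not tested.

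Lrp1, at chr10:127538161-127621148 on the minus strand, was abundant at both stages. Its level was 494, 333, 179 and 401 CPM in NDP10.2, NPD3, NPD4 and NPD9.2, and 269, 565, 543 and 364 CPM in NPD26, NPD27, NPD28 and NPD30. The litters of each stage spread over much of the same range, with the lowest value at E12.5 in NPD4 and the highest at P0 in NPD27. The log2 fold change was 0.31 (SE 0.35), with a 95% interval of -0.47 to 1.09 that takes in both lower and higher abundance at P0.

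Ncl, at chr1:86344719-86359400 on the minus strand, varied least. It stood at 229.8, 293, 249.9 and 268 CPM in NDP10.2, NPD3, NPD4 and NPD9.2, and at 289, 269, 327 and 253 CPM in NPD26, NPD27, NPD28 and NPD30. The spread over litters was 10.3% of the mean at E12.5 and 11.1% at P0, against 26.4% and 42.8% for Mdk. The log2 fold change was 0.13 (SE 0.21), with a 95% interval of -0.33 to 0.59. Small RNA genes lie within Ncl and share 216 of its exon bases (2.12%), so a few of its reads could have been left uncounted as ambiguous.

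Alk, at chr17:71868972-72604627 on the minus strand, was close to the limit of detection. It had 11, 7, 9 and 6 counts in NDP10.2, NPD3, NPD4 and NPD9.2, and 16, 21, 3 and 4 counts in NPD26, NPD27, NPD28 and NPD30, which is 33 counts against 44 in all. In CPM the litters ranged from 1.09 to 2.59 at E12.5 and from 0.353 to 3.03 at P0. By litter, 3 counts are worth 0.337 to 0.675 CPM of the counted reads, before TMM scaling. NPD27 lay above every E12.5 litter, and NPD28 and NPD30 lay below them all. Alk did not pass the filter on low counts, and a fit without the filter gave a log2 fold change of -0.02 with an SE of 0.89, so that a difference of several fold either way was not detectable at this depth.

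Of the 6 genes, 5 could be tested and 2 of these were called at an adjusted p under 0.05, Mdk lower and Ptn higher at P0, where 27.9% of all genes tested were called in either direction (16.0% higher and 12.0% lower). Without NDP10.2, NPD3 or NPD30 only Mdk was called, and with DESeq2, or without the filter on low counts, 3 were, Ptprz1 being the third. Mdk alone had stages that did not overlap, which held for 29.9% of all genes tested (14.4% with P0 below and 15.5% with P0 above). Ordered by level per kilobase at E12.5, Mdk came first with 345 ± 91.0 RPKM, followed by Ptn (37.9 ± 12.1), Ncl (25.5 ± 2.62), Lrp1 (19.9 ± 7.51), Ptprz1 (3.23 ± 1.31) and Alk (0.21 ± 0.0855; all SD, n = 4). By these exon lengths, Ptn, Ncl and Lrp1 could not be ranked beyond their spread at that stage, since the ranges of neighbours in the order overlapped. All exons and 1 principal transcript differ in length by gene, at 3433 and 1614 bases for Ptn and 10188 and 8202 for Ncl. The order was not redone with transcript lengths at either stage. At P0 Ptn came first with 90.8 ± 45.9 RPKM, followed by Ncl (27.9 ± 3.10), Lrp1 (24.6 ± 8.06), Mdk (11.0 ± 4.72), Ptprz1 (1.41 ± 0.687) and Alk (0.21 ± 0.173). Here the ranges of Ncl and Lrp1 overlapped, as did those of Lrp1 and Mdk. In every litter Lrp1 exceeded Ptprz1 per kilobase, by 2.65 to 10.8 times at E12.5 and by 8.05 to 72.7 times at P0.

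The proteoglycans and other surface and matrix proteins that midkine or pleiotrophin bind differed from each other. Of 17 such genes, 17 were tested, 2 were higher at P0, 4 were lower and 11 did not pass the test (log2 fold changes of -1.55 to 0.93). Of all genes tested, 27.9% were called (16.0% higher and 12.0% lower), and the count for this list is a description only. The median log2 fold change of the list was 0.28, against 0.04 over all genes tested. Vcan, which encodes versican, a large chondroitin sulfate proteoglycan of embryonic matrix, stood at 439.9, 949, 599 and 668 CPM in NDP10.2, NPD3, NPD4 and NPD9.2 and at 14.3, 35.0, 31.5 and 45.3 CPM in NPD26, NPD27, NPD28 and NPD30. Its P0 litters were all far below its E12.5 litters (log2 fold change -4.39, SE 0.41, adjusted p = 0.000112 by edgeR's quasi-likelihood test with Benjamini-Hochberg adjustment). Gpc2, a heparan sulfate glypican of the developing nervous system, fell from 31.6 ± 8.99 CPM to 3.80 ± 0.419 CPM (SD, n = 4 each), a log2 fold change of -3.05 (SE 0.30, edgeR adjusted p = 0.000141).

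The syndecans, heparan sulfate proteoglycans that span the membrane, did not move as a group. Sdc4 rose from 35.1 ± 16.3 CPM to 136 ± 36.5 CPM, with no overlap of the stages (log2 fold change 1.96, SE 0.39, edgeR adjusted p = 0.00385). Sdc3, known as a neural receptor of pleiotrophin, rose from 120.0 ± 48.3 CPM to 334 ± 158 CPM (log2 fold change 1.48, SE 0.43, edgeR adjusted p = 0.0251). Its P0 litter NPD30 (126 CPM) lay below the E12.5 litters NDP10.2 (177 CPM) and NPD9.2 (141 CPM), and the call was lost on leaving out NPD3, NPD4, NPD9.2, NPD26 or NPD27 (log2 fold changes of 1.22 to 1.52). The other called genes, named here for completeness after their values were seen, were Sdc1 (log2 fold change -2.23, edgeR adjusted p = 0.00038) and Ptprs, a receptor phosphatase that binds both kinds of chain (log2 fold change -1.15, edgeR adjusted p = 0.0189), both lower at P0.

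**Figure D3:**
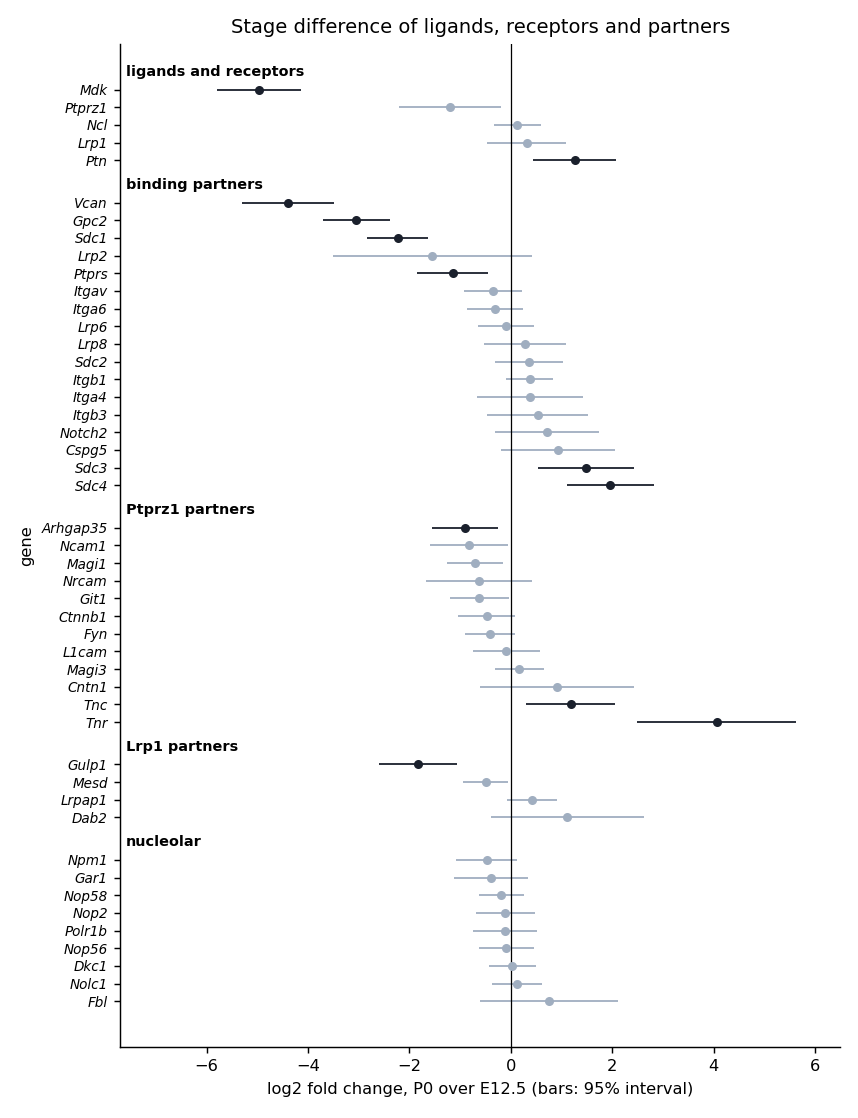
Log2 fold change of P0 over E12.5 (horizontal axis, points) with its 95% interval (bars) for the ligands and receptors and for the partner lists (vertical axis, genes), with dark marks for genes called at an adjusted p under 0.05 and pale marks for the others. Mdk (-4.97) and Vcan (-4.39) lie farthest to the left and Tnr (4.06) farthest to the right, while the 9 nucleolar genes lie between -0.48 and 0.76.

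Of 12 genes for proteins that bind Ptprz1 from outside, or that it acts on or is anchored to inside the cell, all 12 were tested, 2 were higher at P0, 1 was lower and 9 did not pass (log2 fold changes of -0.82 to 0.90), with a list median of -0.44. This count lay near the share over all genes tested, of which 27.9% were called (16.0% higher and 12.0% lower). Tnr (tenascin R), a matrix glycoprotein of the nervous system, stood at 0.472, 0.39, 0.363 and 2.95 CPM in NDP10.2, NPD3, NPD4 and NPD9.2 and at 9.59, 29.99, 11.7 and 14.6 CPM in NPD26, NPD27, NPD28 and NPD30. Even the highest E12.5 litter, NPD9.2, lay below every P0 litter (log2 fold change 4.06, SE 0.71, edgeR adjusted p = 0.00224). The E12.5 values rest on only 2, 2, 3 and 12 counts, in the same litter order, so the size of the fold change is poorly fixed. Tnc (tenascin C), a matrix glycoprotein of growing skeletal tissue, rose from 50.9 ± 20.2 CPM to 115 ± 43.4 CPM with overlap of the stages (log2 fold change 1.18, SE 0.40, edgeR adjusted p = 0.0473). Arhgap35, a substrate of Ptprz1, fell from 157 ± 17.9 CPM to 83.6 ± 34.1 CPM (log2 fold change -0.91, SE 0.30, edgeR adjusted p = 0.0411). Both of the latter calls sat near the threshold. That of Tnc was kept on leaving out NPD26 (log2 fold change 1.43) and lost without any other single litter (0.92 to 1.33), and with all litters it was also lost with limma-voom (adjusted p = 0.0583) and with DESeq2 size factors (edgeR adjusted p = 0.0513). That of Arhgap35 was kept on leaving out NPD30 (-1.20) and lost without any other (-1.01 to -0.71).

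The relatives of Alk had few counts or none. Ltk, its sister kinase, had 0 counts in all 4 E12.5 litters, which allows a level of up to 0.418 to 0.675 CPM of the counted reads by litter, and had 7, 9, 7 and 7 counts (0.824 to 1.30 CPM) in NPD26, NPD27, NPD28 and NPD30. Of the cytokines that activate Alk and Ltk, Alkal1 had 0 counts in every litter. Alkal2 had 1, 2, 0 and 0 counts at E12.5 and 0, 7, 6 and 1 counts at P0, in the same litter order. None of the 3 passed the filter on low counts, so none was tested. Without the filter Ltk was called higher at P0 (edgeR adjusted p = 0.0193).

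Of 4 chaperones and adaptors of Lrp1, 1 was lower at P0 and 3 did not pass the test (log2 fold changes of -0.50 to 1.11), with a list median of -0.04. For this list and the next, the share called over all genes tested was 27.9% (16.0% higher and 12.0% lower). The called gene was Gulp1, an adaptor that binds the tail of Lrp1 in engulfment, which fell from 30.5 ± 8.59 CPM to 8.53 ± 3.05 CPM (log2 fold change -1.84, SE 0.35, edgeR adjusted p = 0.00315). Its stages did not overlap. Of 9 nucleolar genes that work beside nucleolin in ribosome making, 0 were called by edgeR, with 0 at an unadjusted p under 0.05 and 0 called by DESeq2. Their log2 fold changes lay between -0.48 and 0.76 with a median of -0.11, and the smallest adjusted p was 0.23 (edgeR).

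The genes whose levels followed those of the ligands most closely over the 8 litters were sought by the root mean square difference of centred log2 CPM, among 12687 other genes of sufficient level. Nearest to Mdk was Pax1, a transcription factor of the sclerotome and one of the sclerotome markers counted above, at a difference of 0.229. It stood at 100.3, 89.6, 67.7 and 92.5 CPM in NDP10.2, NPD3, NPD4 and NPD9.2 and at 1.73, 3.75, 1.18 and 2.27 CPM in NPD26, NPD27, NPD28 and NPD30, so that NPD27 was the highest and NPD28 the lowest P0 litter for both genes. Next came Nes (nestin, an intermediate filament of progenitor cells, difference 0.44) and Cdkn1c (an inhibitor of the cell cycle, difference 0.458), with log2 fold changes of -4.36 and -4.59. Nearest to Ptn were Peli2, a ubiquitin ligase of innate immune signalling, at 0.271, Klc2, a light chain of the motor kinesin, at 0.274, and Hacl1, a peroxisomal enzyme, at 0.28. Their log2 fold changes were 0.99, 1.02 and 1.23, and each was highest in NPD30, as Ptn was. Because all 6 were chosen for likeness over these same litters to genes already known to differ, their fold changes carry no test here. Their shared order of litters with Mdk or Ptn follows from that choice as well.

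**Figure D4:**
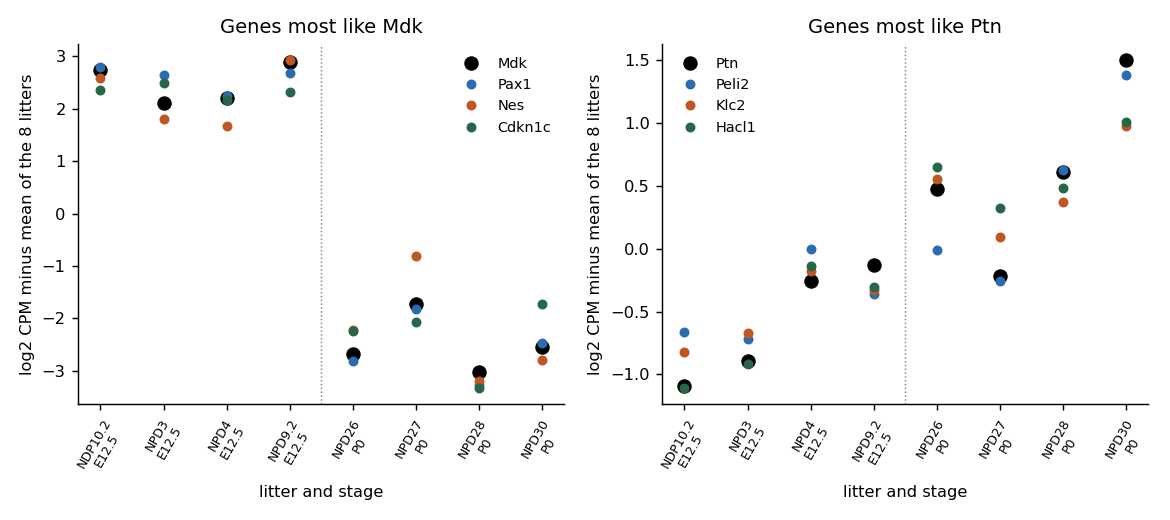
Log2 CPM of Mdk (left, black) and Ptn (right, black) and of the 3 genes most like each (colours), less each gene's mean over the 8 litters, in every litter (horizontal axis), with E12.5 left of the dotted line. Pax1 tracks Mdk to within a root mean square difference of 0.229, and Peli2 tracks Ptn to within 0.271.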

How the data were processed

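RNA from 8 samples was sequenced as single-end reads. The authors aligned them to GRCm38 with STAR (2.4.0j per the submitters' processing notes) and deposited raw counts per Gencode M4 gene from htseq-count, 1 file per sample. The strand setting is not given in the sources used here. Reads not assigned to a gene were left out of library sizes (65.2% to 77.4% of reads tallied). Of 43346 identifiers, 42462 were matched to a symbol, and positions and exon lengths came from Gencode M21. Litters are the replicates.

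Counts were tested with edgeR 4.0.16 in R 4.3.3 (TMM, filterByExpr with a minimum count of 10 and a minimum total of 15, robust quasi-likelihood F-test, stage as the only term), and a gene was called at a Benjamini-Hochberg adjusted p under 0.05 over the 15467 genes tested. Alternatives were DESeq2 1.42.0, limma-voom (limma 3.58.1), DESeq2 size factors, no filter and leaving out each litter. The genes and lists were chosen with earlier results of these data known. Named were the 6 genes, the called list genes with the 2 largest fold changes in each direction, the relatives of Alk, and for Mdk and Ptn the 3 genes most alike (mean log2 CPM of at least 2, prior count 2). A count of 0 was taken to allow up to 3 counts, which covers counting error only.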

Additional observations from a re-analysis of the deposited data

Results flagged for a closer look

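Of 143 groups of 4 litters looked at (the ligands, receptors and listed partners, the genes most alike, T, Shh, Sox10 and Sox2, the marker sums and the ratios per kilobase, at each stage), 7 held a litter whose gap to the next exceeded Dixon's 95% critical value for 4 samples, where chance alone sets apart about 1 group in 20. At E12.5, NPD9.2 stood apart in Tnr at 2.95 CPM (12 counts) against 0.363 to 0.472 CPM (2 to 3 counts) in the other litters. It also stood apart in Lrp2 at 15.2 CPM against 6.13 to 7.22 CPM, and in the leukocyte marker sum at 167 CPM against 55.6 to 67.7 CPM. NPD4 stood apart in Nrcam at 39.4 CPM against 9.10 to 13.0 CPM and in the neural marker sum at 1652 CPM against 157 to 296 CPM. NPD3 stood apart in Nop2, a nucleolar gene, at 18.9 CPM against 31.2 to 32.6 CPM. At P0, NPD30 stood apart in the leukocyte marker sum at 469 CPM against 4498 to 5317 CPM. NPD9.2 was also a litter with a smaller share of reads on genes (24.6%), and the part of this in its values was not tested.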

How the results depend on the processing

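No paired analysis was possible because the labels give the litters of the 2 stages no shared number. Leaving out the E12.5 litters NDP10.2 and NPD9.2 together, a choice made after seeing the data, gave 2581 genes called in place of 4321, 1 of the 6 ligand and receptor genes in place of 2 (Ptn was lost, at 1.23), and 1 of the Ptprz1 partners in place of 3. With any single litter left out there were 3612 to 4529 genes called, 1 to 2 ligand and receptor genes, 4 to 6 binding partners, 1 to 4 Ptprz1 partners and 1 to 2 Lrp1 partners. DESeq2 called 2 Lrp1 partners in place of 1, adding Mesd, and 3 ligand and receptor genes, adding Ptprz1. Without the filter 1 relative of Alk was called in place of 0, since Ltk was then tested, and the median log2 fold change of all genes was 0.45 in place of 0.04. With the length of 1 transcript, a choice made after seeing the data, Mdk made up 84.0% of both ligands per kilobase at E12.5 in place of 89.8%, since the ratio of the lengths differs. Other than where stated, the causes were not tested. Of 19 genes followed under 13 alternatives each, 11 kept their side of the threshold throughout, Mdk among them (-5.29 to -4.64), and 0 of 247 values changed direction. Depth limits Alk and its relatives most.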
